A study of Mus musculus with 4 samples.

Results

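The miR-23/27/24 miRNA of the mouse are made from 2 clusters of 3 hairpins each, miR-23a/27a/24-2 on chromosome 8 and miR-23b/27b/24-1 on chromosome 13. Their mature arms were picked by name from the small RNA count tables of cortical neurons, which gave 9 members of the 1966 miRNA listed. Of these members 3 belong to the first cluster alone, 5 to the second alone, and 1, miR-24-3p, is encoded in both. Of the 9 members 6 had reads and 3, all of them arms of miR-24, had 0 reads in every library. The opposite arms miR-23a-5p and miR-27a-5p are not among the 9 and are given only beside their hairpins.

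The study asked which miRNA are altered in neurons of APP/PS1 mice, a model of Alzheimer's disease called TgAD here, and compared them with WT neurons in 2 small RNA libraries per genotype. The TgAD genotype combines 2 transgenes, an APP part mouse and part human with the Swedish mutations and a PS1 of human origin without one of its exons, and its prion promoter limits both largely to brain and spinal cord neurons. WT mice carry neither transgene. All 4 libraries were made from cortex taken at E16.5 (days of gestation), dissociated and grown for 5 days in vitro in serum-free medium, without further treatment. Per the methods, the neurons of each mouse embryo were grown apart, genotyped and taken as a biological replicate, and which litters they came from is not given in the sources used here. The p values measure the spread between these libraries. No transgene can be read from miRNA counts, and the genotype labels therefore have no check within these data.

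A second deposited table, of normalized values, has columns that do not hold the libraries they are named for. Whole reads were recovered from it (100% of values whole in every column), and its column named as the first WT library was equal to the count table labelled TgAD library 1 for 674 of 674 miRNA. The column named as the second WT library was equal in the same way to the count table of WT library 1, and the column TR_1 to that of TgAD library 2. The column TR_2 was equal to no count table (at most 4.45% of values the same), and WT library 2 is in none of the columns. All results below use the labels of the count tables, and values with the columns taken by name are given beside the results whose direction or size they change and in the closing section.

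A miRNA acts as a guide that pairs, mostly through bases 2 to 8 from its 5′ end (the seed), with sites in messenger RNA and lowers their translation and stability. Both arms of a hairpin can be loaded, but usually the guide arm is kept and the other, the passenger, is degraded. The paralogous copies of miR-23, miR-27 and miR-24 in vertebrates arose by duplication of a whole cluster. These families are best known from blood vessels, blood cells and muscle. In neurons, members of both clusters have been studied as repressors of genes that promote apoptosis. Apart from work on neurons, miR-23a and miR-23b are known as repressors of glutaminase, and miR-24 of genes of the cell cycle in differentiating cells.

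The mature sequences are shown because the seed groups the members and because members that differ by few bases limit what short reads can tell apart. They were taken from RefSeq on GRCm38.p6, 5′ to 3′, with the seed in capitals, for 8 of the 9 members. The miRNA without a line is mmu-miR-23b-3p. The species prefix mmu is left out elsewhere.
mmu-miR-23a-3p: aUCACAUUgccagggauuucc
mmu-miR-27a-3p: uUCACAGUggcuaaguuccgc
mmu-miR-27b-3p: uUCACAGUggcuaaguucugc
mmu-miR-24-3p: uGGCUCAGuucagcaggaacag
mmu-miR-24-1-5p: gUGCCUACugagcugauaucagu
mmu-miR-24-2-5p: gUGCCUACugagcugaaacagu
mmu-miR-27b-5p: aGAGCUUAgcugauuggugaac
mmu-miR-23b-5p: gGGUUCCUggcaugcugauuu

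miR-27a-3p and miR-27b-3p share the seed UCACAGU with no other of the 1679 mature miRNA in the RefSeq table, and differ by the single substitution C19U, counted from the 5′ end with miR-27a-3p first. A read that stops before base 19 therefore does not tell them apart, and reads were mapped without mismatch. miR-24-1-5p and miR-24-2-5p are the same over their first 16 bases and also share a seed. The mature arms printed above are 21 to 23 nucleotides long, so that a read covers most of a molecule and reads were compared between members without a correction for length.

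The clusters have the same order on the plus strand but not the same spacing. In GENCODE M21 (GRCm38), Mir23a lies at chr8:84208518-84208592, Mir27a at chr8:84208672-84208758 and Mir24-2 at chr8:84208815-84208921, with gaps of 79 and 56 nucleotides. No other gene spans them, and the lincRNA Gm26532 starts within the last 2 nucleotides of Mir24-2. Mir23b lies at chr13:63300484-63300557, Mir27b at chr13:63300712-63300784 and Mir24-1 at chr13:63301208-63301275, with wider gaps of 154 and 423 nucleotides. These 3 hairpins lie within 2010111I01Rik (Aopep in RefSeq), which encodes aminopeptidase O and runs from 62964893 to 63326096 on the same strand. Of its 28 transcripts 9 span Mir23b and Mir27b. Mir23b is intronic in all 9 and Mir27b in 8, with an exon of 1 transcript over it, and Mir24-1 in 7 of the 8 that span it. The gene Fancc, of the Fanconi anemia repair pathway, spans them on the opposite strand, and they are intronic in its 1 transcript that reaches them.

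Opposite to each miR-24 hairpin lies a second annotated hairpin, on the minus strand. Mir3074-2 runs over chr8:84208825-84208907, within Mir24-2, and Mir3074-1 over chr13:63301199-63301283, around the whole of Mir24-1. Of the 22 nucleotides of miR-24-3p, 20 face miR-3074-5p at both loci, and 20 of miR-24-2-5p face miR-3074-2-3p. The hairpins of miR-23a, miR-23b, miR-27a and miR-27b have no such partner, as the map of the hairpins shows.

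**Figure D1:**
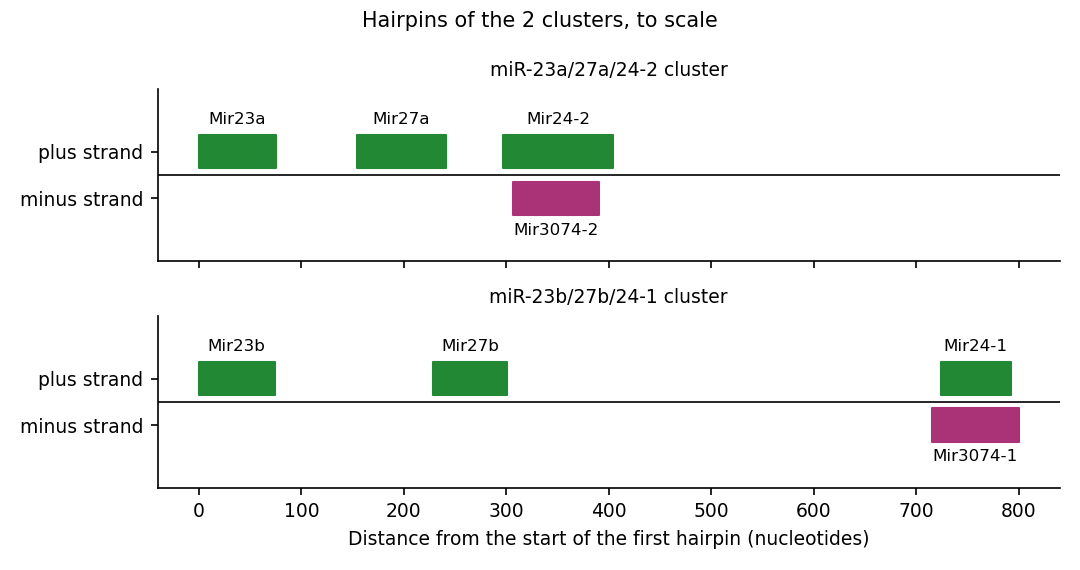
Hairpins of the 2 clusters by distance in nucleotides from the start of the first hairpin, with those of the plus strand in green and those of the minus strand in purple, from GENCODE M21. The 3 hairpins of the miR-23a cluster end 403 nucleotides after that start and those of the miR-23b cluster 791, and the Mir24 hairpins alone lie opposite another hairpin.

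The libraries held 2070204 and 2752599 reads on miRNA for WT and 2758525 and 4811010 for TgAD. Levels are given in CPM, reads relative to the library total after scaling by edgeR's TMM method, and the 3 reads taken as the floor correspond to between 0.746 and 1.28 CPM. TgAD was compared with WT by edgeR's quasi-likelihood test over the 496 miRNA that passed its filter on low counts, with Benjamini-Hochberg adjustment, and a miRNA was called where its log2 fold change exceeded 0.6 in either direction and its adjusted p was under 0.1. An exact permutation test of 2 against 2 libraries cannot go below a two-sided p of 0.333. Lists of miRNA known from cell types served to check the label. Of 11 miRNA of neurons 9 had reads, led by miR-128-3p, miR-137-3p and miR-132-3p. Among the 9, miR-124-3p, which lies opposite no mature arm, had only 1 and 2 reads in WT and 7 and 4 in TgAD libraries. miR-129-2-3p had 1 read in WT library 2 and 0 in the others, and neither passed the filter. The summed level of the list was 26656 to 40404 CPM in WT and 64886 to 90347 CPM in TgAD libraries, with 2 called higher and 1 lower. One marker, miR-128-3p, carried this sum, and without it the others summed to 8351 and 7364 CPM in WT and to 6289.7 and 5163 CPM in TgAD libraries. The 8 of astrocytes and other glia, led by miR-21a-5p, summed to 20538 to 26010 CPM in WT and 17713 to 18332 CPM in TgAD, with 1 called higher and 0 lower. Without miR-21a-5p, which was not called, the other glial markers summed to 3400 and 3430 CPM in WT and to 3212 and 3992 CPM in TgAD, which overlap. Those of myeloid cells (26.4 to 61.2 CPM over the 4 libraries) and of endothelium and vessel wall (15.8 to 26.6 CPM) were low, but both arms of miR-126a, the defining miRNA of endothelium, and all 3 markers of oligodendrocytes had 0 reads. Of these 5, miR-126a-3p, miR-219a-5p and miR-338-3p lie opposite a mature arm of another miRNA, a position whose counts are given below with miR-24, so that their zeros do not tell whether these cells were present. The others, miR-126a-5p and miR-219a-2-3p, lie opposite no mature arm and had 0 reads as well. Among the myeloid markers, miR-142a-3p had 0 reads in every library and lies opposite a mature arm too. The low myeloid sum therefore does not tell how many such cells were present. The 4 of erythroid cells, almost all miR-451a, summed to 1310 and 1331 CPM in WT and 646 and 957 CPM in TgAD, with 1 called lower and 0 higher. The one called was miR-451a (log2 fold change -0.72, edgeR adjusted p = 0.0707). The part of these cell types in the levels of the members was not tested.

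The 3 arms of miR-24 had 0 reads in all 4 libraries. For miR-24-3p, the guide arm of both clusters, 0 reads of 2070204 to 4811010 allow up to 3 reads per library, which is under 1.28 CPM in each. This limit covers counting error only and is no bound on the level in the neurons if reads were not assigned to this arm. The arms of the same clusters beside it had up to 20362 reads in a library. On the opposite strand miR-3074-5p and miR-3074-2-3p also had 0 reads in every library, and miR-3074-1-3p had 5 reads in TgAD library 2 and 0 in the others.

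The position of miR-24-3p and miR-24-2-5p opposite another mature arm was shared by other arms without reads. For miR-24-1-5p no facing mature arm was found among the RefSeq positions, which lack some of the listed miRNA, only the hairpin Mir3074-1. Whether miR-3074-1-3p, a counted arm of that hairpin, faces it was not checked. Of the 1966 listed miRNA 1675 had a position in the RefSeq table, and 69 of these had a mature arm that overlaps one on the opposite strand. Among the 69, 60 (87.0%) had 0 reads in all 4 libraries, and the highest total over the 4 libraries was 118 reads. Counting every arm that faces at least a hairpin, 64 of 78 (82.1%) had 0 reads, but 2 had over 1000 and the highest total was 12169 reads. Of the 1563 miRNA at 1 locus with no such partner 594 (38.0%) had 0 reads and 194 had over 1000. Of the 43 with 2 or more loci and no partner, 22 (51.2%) had 0 reads and 10 had over 1000 reads. miR-9-5p and miR-9-3p, a pair named for neurons in the marker list, are among the 69 and had 0 reads too. This grouping was chosen after the values were seen. These counts do not tell whether miR-24 was present in the neurons, and the strand setting used for counting is not given in the sources used here. No fold change, ratio or test could be had for miR-24 in WT or TgAD neurons.

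**Figure D2:**
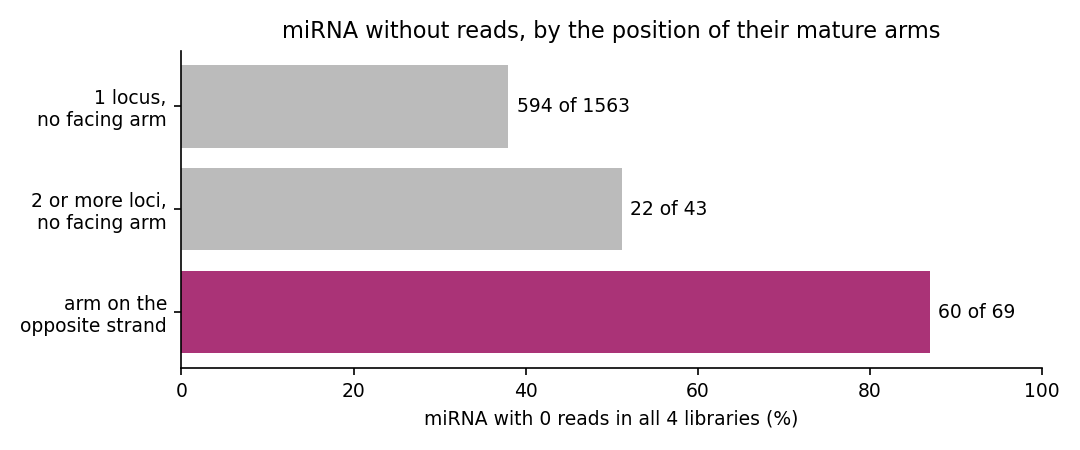
Share of miRNA with 0 reads in all 4 libraries (bars, in percent, with counts beside them) for 1675 miRNA grouped by whether a mature arm lies on the opposite strand of theirs. Of the 69 that face another arm, among them miR-24-3p and miR-24-2-5p, 60 had no reads.

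The remaining members were spread over more than 3 orders of magnitude, in the same order of the 3p arms in every library, with the guide arms of the miR-23b cluster above those of the miR-23a cluster. miR-27b-3p was highest and held between 77.0% and 79.8% of all member reads. It ranked 26 of the 496 tested miRNA by mean CPM, miR-23b-3p 91, miR-23a-3p 162, miR-27a-3p 191 and miR-27b-5p 442. Each pair of neighbours among the 3p arms was separated in all 4 libraries, since the lowest library of the higher miRNA lay above the highest of the lower. miR-27b-5p and miR-23b-5p were separated as well, though by few reads.

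**Figure D3:**
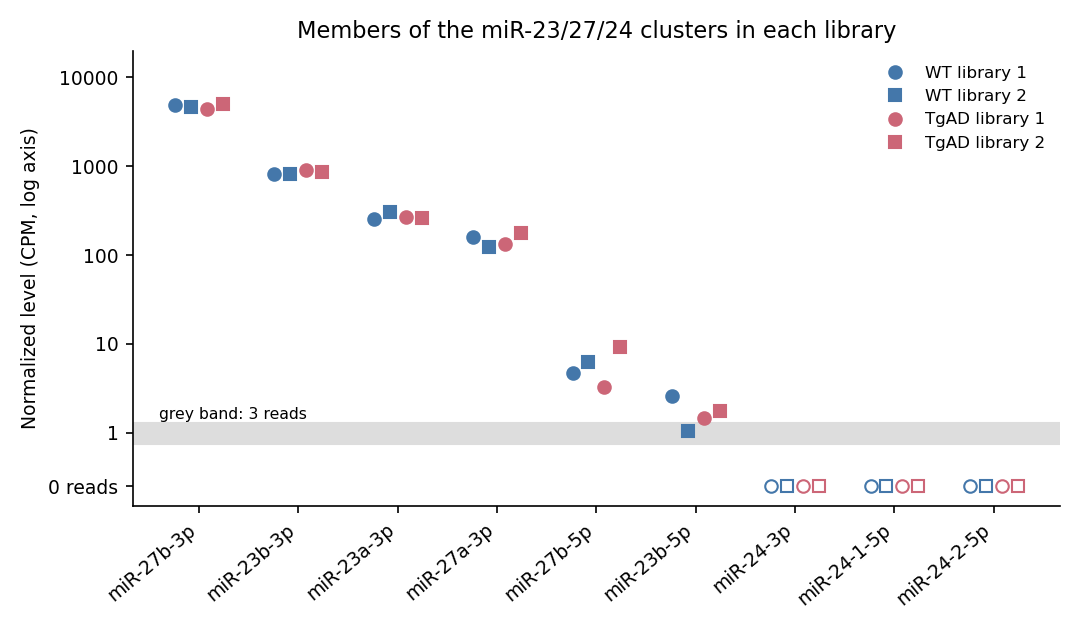
Normalized level of the 9 members (CPM, log axis) in each of the 4 libraries, with WT in blue and TgAD in red, library 1 as circles and library 2 as squares. Filled points are measured levels, open points at the bottom mark 0 reads, and the grey band is the level of 3 reads (0.746 to 1.28 CPM); WT and TgAD points of each miRNA lie close together beside the distances between miRNA.

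miR-27b-3p, known as a repressor of fat cell differentiation, was counted 11518 and 13422 times in WT neurons, against 12102 and 20362 times in TgAD neurons. Scaled, these were 4902 and 4610 CPM in WT and 4411 and 5063 CPM in TgAD. The TgAD libraries lay below and above both WT libraries, so that the genotypes overlapped. The log2 fold change of -0.0058 had a standard error of 0.193 and a 95% interval from -0.47 to 0.46 (edgeR adjusted p = 0.989). The interval corresponds to a level in TgAD between 0.721 and 1.38 times that in WT. Without WT library 1 the log2 fold change was 0.054, and with the columns of the normalized table taken by name it was -0.16.

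miR-23b-3p was counted 1918 and 2388 times in WT neurons, against 2491 and 3504 times in TgAD neurons. Its level was 816 and 820.2 CPM in WT and 908 and 871 CPM in TgAD, and it was the only tested member whose genotypes did not overlap in CPM. Of the 496 tested miRNA, 63.1% had genotypes that did not overlap, 30.6% with TgAD higher and 32.5% with TgAD lower. The log2 fold change of miR-23b-3p was 0.12 and was not called (standard error 0.176, 95% interval -0.30 to 0.55, edgeR adjusted p = 0.660). Without TgAD library 1 it was -0.0070, and with the columns of the normalized table taken by name it was -0.20.

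miR-23a-3p, the homologue of miR-23b-3p in the other cluster, was counted 601 and 890 times in WT neurons, against 743 and 1055 times in TgAD neurons. The levels were 256 and 306 CPM in WT and 271 and 262 CPM in TgAD, both TgAD libraries within the span of the WT libraries. The log2 fold change was -0.075 (standard error 0.197, 95% interval -0.55 to 0.40, edgeR adjusted p = 0.807), and 0.045 without WT library 2.

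miR-27a-3p, which shares its seed with miR-27b-3p, was counted 378 and 357 times in WT neurons, against 367 and 708 times in TgAD neurons. These were 161 and 123 CPM for WT, and 134 and 176 CPM for TgAD. The genotypes overlapped, and the SD within a genotype (27.1 CPM in WT and 29.9 CPM in TgAD) exceeded the difference of 13.2 CPM between the means. Its log2 fold change was 0.13 (standard error 0.250, 95% interval -0.47 to 0.73, edgeR adjusted p = 0.739), which became -0.068 without WT library 2 and -0.052 without TgAD library 2.

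miR-27b-5p, the passenger arm of Mir27b, was counted 11 and 18 times in WT neurons, against 9 and 37 times in TgAD neurons. Its levels of 3.28 and 9.20 CPM in TgAD enclosed those of 4.68 and 6.18 CPM in WT. The log2 fold change of 0.24 (standard error 0.554, 95% interval -1.09 to 1.58, edgeR adjusted p = 0.779) was the least certain of the members and became -0.70 without TgAD library 2. With the columns of the normalized table taken by name it was 1.03. miR-23b-5p, the passenger arm of Mir23b, was counted 6 and 3 times in WT neurons, against 4 and 7 times in TgAD neurons, too few to pass the filter.

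None of the 5 tested members was called, while 33.1% of the 496 tested miRNA were called at these cutoffs, with 17.3% lower and 15.7% higher in TgAD. At a log2 fold change over 1 and an adjusted p under 0.01, 4.44% of all were called and 0 members. In edgeR's quasi-likelihood test 0 of the 5 had an unadjusted p under 0.05 (lowest 0.518), and in DESeq2 0 of the 6 with a value (lowest unadjusted p 0.679). The median size of the log2 fold change was 0.12 over the 5 members and 0.53 over all tested miRNA, and the median standard errors were 0.197 and 0.281. For miR-23a-3p, miR-23b-3p and miR-27b-3p the 95% intervals ended within 0.6 on both sides. This depended on the fit. The standard error of miR-23a-3p was 0.372 without WT library 1, and with the columns of the normalized table taken by name those of the 3 were 0.433 to 0.451, at which the intervals reach past 0.6. The intervals of miR-27a-3p and miR-27b-5p reached past it, and a change of that size was not detectable in these libraries.

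**Figure D4:**
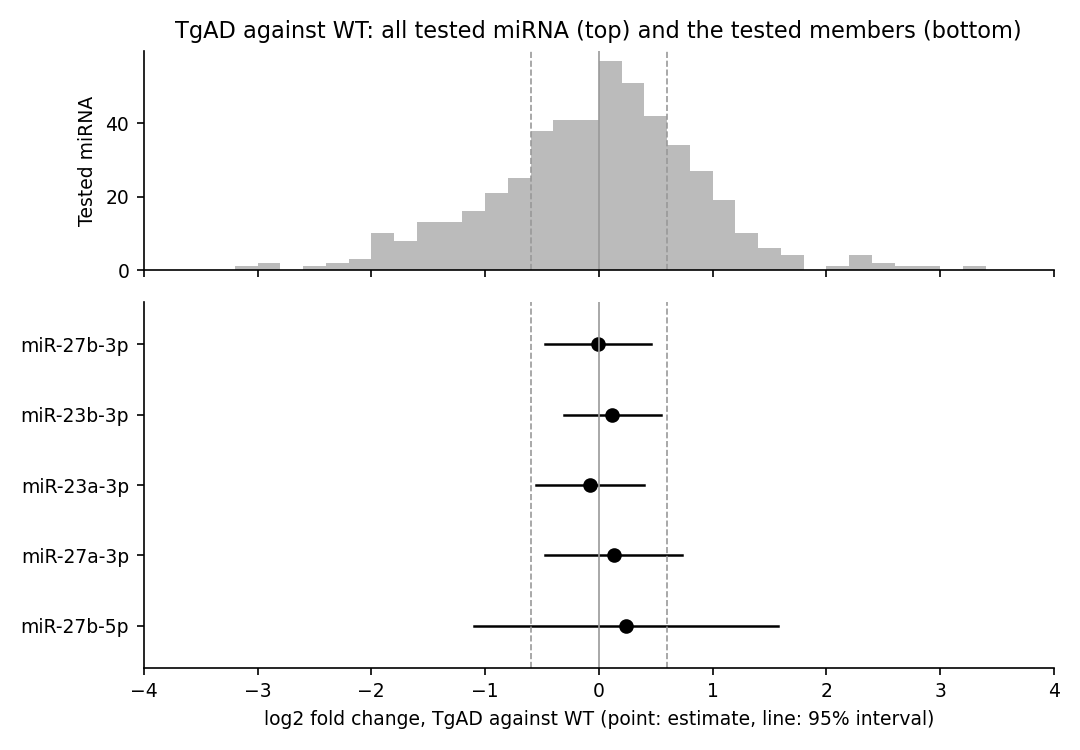
Log2 fold change of TgAD against WT for the tested miRNA (top, number of miRNA per bin of 0.2, without miR-8117, which lies past 4 in size) and for the 5 tested members (bottom, points, with 95% intervals as lines). Dashed lines mark 0.6 in both directions; the 5 points lie between -0.075 and 0.24, and the intervals of 3 members end within the dashed lines in this fit.

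The direction of these small differences depended on the scaling of the libraries. A single miRNA, miR-99a-5p, made up at most 16.7% of a WT library and up to 31.8% of a TgAD library. With total reads as library size, the median log2 fold change of all tested miRNA moved from 0.032 to -0.23, and the calls from 86 lower and 78 higher to 122 lower and 43 higher. On that scale all 5 members were lower in TgAD, by log2 fold changes between -0.33 (miR-23a-3p) and -0.062 (miR-27b-5p), and 0 were called (lowest edgeR adjusted p = 0.435). miR-27b-3p then had 5564 and 4876 RPM (the CPM of unscaled library totals) in WT against 4387 and 4232 in TgAD, which do not overlap. miR-23a-3p did not overlap either, at 290 and 323 RPM in WT against 269 and 219 in TgAD. The other tested members overlapped on this scale, among them miR-23b-3p, at 926 and 868 RPM in WT against 903 and 728 in TgAD. The share of all tested miRNA without overlap was not counted on this scale, and on the TMM scale it was 63.1%. The lack of overlap is therefore not shown to be particular to these members. The members together took 0.697% and 0.620% of all reads in WT and 0.570% and 0.534% in TgAD libraries. This difference of -0.107 percentage points had the smallest p that the exact permutation test allows (two-sided p = 0.333), and after TMM scaling it was 0.0052. With the columns of the normalized table taken by name it was -0.218.

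Ratios between members within a library do not depend on scaling. The 3p arms of the miR-23b cluster, miR-23b-3p and miR-27b-3p, had between 12.7 and 13.7 times the reads of miR-23a-3p and miR-27a-3p in all 4 libraries. This excess lay mainly in miR-27. The ratio of miR-27b-3p to miR-27a-3p was 30.5 and 37.6 in WT and 33.0 and 28.8 in TgAD libraries, while that of miR-23b-3p to miR-23a-3p was 3.19 and 2.68 in WT and 3.35 and 3.32 in TgAD.

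With 2 against 2 libraries the exact test could call no difference in these ratios between genotypes, so the values are given as they are. The log2 ratio of miR-27b-3p to miR-27a-3p was 5.08 ± 0.214 in WT and 4.94 ± 0.139 in TgAD (SD, n = 2 each), a difference of -0.14 (two-sided exact permutation test, p = 0.667). It became 0.016 without WT library 2, -0.29 without WT library 1 and -0.33 with the columns of the normalized table taken by name. That of miR-23b-3p to miR-23a-3p was 1.55 ± 0.177 in WT and 1.74 ± 0.0094 in TgAD (SD, n = 2 each). Both TgAD libraries lay above both WT libraries by a mean of 0.19, with the smallest p the exact permutation test allows (two-sided p = 0.333), and 0.833 after Benjamini-Hochberg adjustment over the 5 ratios tested. The difference was 0.065 without WT library 2, 0.31 without WT library 1 and -0.16 with the columns of the normalized table taken by name.

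Within a cluster the 3p arms did not have equal numbers of reads. Adapter ligation favours some ends over others, so that ratios between miRNA are ratios of reads and not of molecules. miR-27b-3p had between 4.86 and 6.01 times the reads of miR-23b-3p, but miR-27a-3p had only 0.401 to 0.671 times those of miR-23a-3p. The clusters thus differed in the order of their 3p arms in all 4 libraries. In terms of seeds, the summed miR-27 arms were at 5063 and 4732 CPM in WT and 4544 and 5239 CPM in TgAD, and the summed miR-23 arms at 1072 and 1126 CPM in WT and 1179 and 1134 CPM in TgAD. The summed miR-27 arms overlapped between genotypes. The summed miR-23 arms did not, at 1099 ± 38.0 CPM in WT and 1156 ± 31.8 CPM in TgAD (SD, n = 2 each, two-sided exact permutation test, p = 0.333). Of single tested miRNA, 63.1% did not overlap in CPM. As unscaled shares of all reads, both sums were lower in TgAD without overlap, so the direction depended on the scaling. How many of all tested miRNA did not overlap as unscaled shares was not counted. The miR-23 arms took 0.122% and 0.119% in WT and 0.117% and 0.0948% in TgAD. The miR-27 arms took 0.575% and 0.501% in WT and 0.452% and 0.438% in TgAD.

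**Figure D5:**
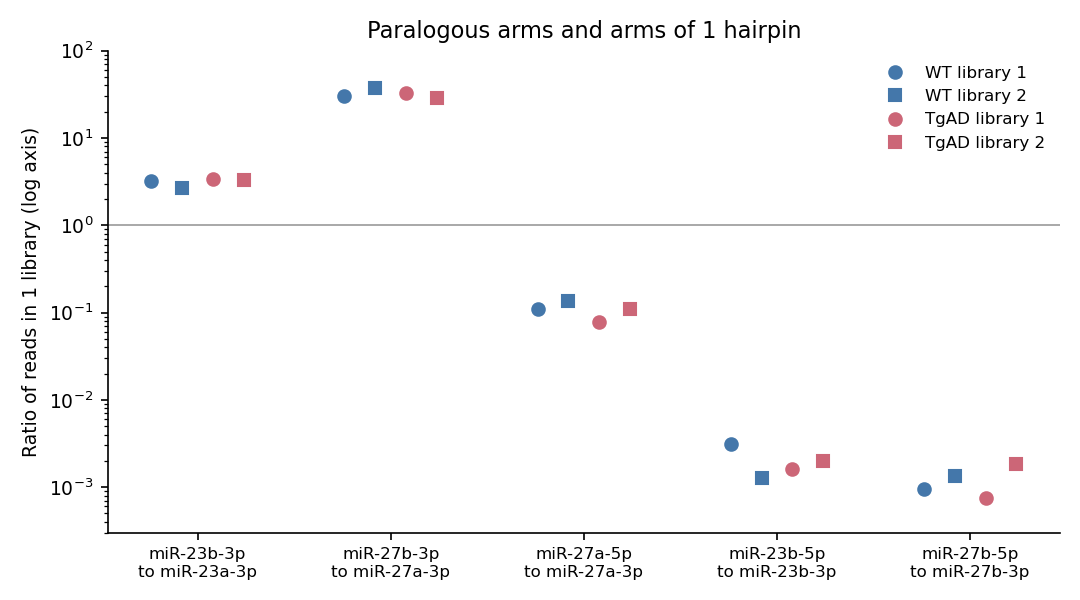
Ratio of reads between members in the same library (log axis), with WT in blue and TgAD in red, library 1 as circles and library 2 as squares. miR-27b-3p exceeds miR-27a-3p 28.8- to 37.6-fold and miR-23b-3p exceeds miR-23a-3p 2.68- to 3.35-fold, while the 5p to 3p ratio is about 0.1 for Mir27a and under 0.004 for Mir23b and Mir27b.

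The 5p arms were rare beside the 3p arms, but not equally at the miR-27 hairpins of the 2 clusters. At Mir27b, 5p reads were 0.0954% and 0.134% of the reads of both arms in WT and 0.0743% and 0.181% in TgAD libraries. The exact binomial 95% intervals ran from 0.0340% to 0.250% over the 4 libraries and cover counting error only. At Mir23b the 5p share was 0.312% and 0.125% in WT and 0.160% and 0.199% in TgAD libraries, with intervals between 0.0259% and 0.678%. At Mir27a, by contrast, 5p reads made up 9.79% and 11.9% in WT and 7.32% and 9.81% in TgAD libraries, and the intervals, from 4.96% to 15.4%, did not overlap those of Mir27b. miR-27a-5p, counted 41 and 48 times in WT neurons, against 29 and 77 times in TgAD neurons, was thus higher than miR-27b-5p in every library although its 3p arm was lower. miR-23a-5p was counted at most 2 times in a library. At Mir23a the 5p share was 0.332% and 0% in WT and 0% and 0.0947% in TgAD libraries, with intervals that overlap those of Mir23b.

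The arm ratios of Mir27b, Mir23b and Mir27a, taken from the reads as counted, overlapped between genotypes. For Mir27a the overlap was slight, with a ratio of 0.1085 in WT library 1 and 0.1088 in TgAD library 2. For Mir27b the difference in the log2 ratio of 5p to 3p between TgAD and WT was 0.036 and for Mir23b it was -0.18 (two-sided exact permutation test, p = 1 for both, with 0.5 reads added to each count). Without TgAD library 2 that of Mir27b was -0.58 and without WT library 1 -0.20, and without WT library 1 that of Mir23b was 0.42. With the columns of the normalized table taken by name they were 1.17 and -0.33. For Mir27a the log2 ratio was -3.04 ± 0.217 in WT and -3.42 ± 0.316 in TgAD (SD, n = 2 each), a difference of -0.38 (two-sided exact permutation test, p = 0.333), the smallest p possible. With 0.5 reads added, TgAD library 2 was at -3.193 and WT library 1 at -3.189, so the separation behind this p rested on the added reads. The difference was -0.16 without TgAD library 1, -0.60 without TgAD library 2, and 0.25 with the columns of the normalized table taken by name.

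The miRNA with the profile most like that of the members over the 4 libraries were sought among 265 tested miRNA with at least 100 reads in every library, by the distance of their centred log2 CPM. Nearest to the mean of miR-23a-3p and miR-27a-3p were miR-1843a-5p (distance 0.058), miR-676-3p (0.059) and miR-495-3p (0.11). Nearest to the mean of miR-23b-3p and miR-27b-3p were miR-329-3p (0.060), miR-495-3p (0.065) and miR-1843a-5p (0.071). All 4 of these miRNA had log2 fold changes between 0.012 and 0.11, and with 4 libraries and nearly level profiles the likeness says little beyond that.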

How the data were processed

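Small RNA of 4 libraries was sequenced with reads of 50 bp. The authors mapped adapter-trimmed reads to GRCm38 (GRCm38.p6 in the submitters' processing notes) with Bowtie2 without mismatch, ran HTSeq-count with miRBase annotation, and deposited whole-read counts without normalization, 1 table per library. A further table that the authors deposited holds a normalized signal, counts divided by 1 size factor per column, used only as an alternative. Whole reads were recovered from 100% of its values (tolerance 0.0001). How reads with several placements were counted is not given in the sources used here.

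Counts were analyzed with edgeR 4.0.16 in R 4.3.3 (TMM, filterByExpr, quasi-likelihood test without the robust option, genotype as the only factor, Benjamini-Hochberg adjustment). The standard error is the size of the log2 fold change divided by the square root of F, and the interval uses the test's degrees of freedom. Ratios were compared by exact permutation tests (scipy 1.17.1) with 0.5 reads added. Depth, 2070204 to 4811010 reads, limits rare arms, and floors and the binomial intervals of the arm shares cover counting error only. DESeq2 1.42.0 and the other alternatives are given in the closing section. The procedure was tested on simulated counts. The members, marker lists and alternatives were chosen with earlier results of these data known. The text names the members, the other arms of their hairpins, the leading markers of each list, and the 3 miRNA nearest in profile to each cluster. The arms of miR-9, miR-126a and miR-3074, as well as miR-142a-3p, miR-8117, miR-99a-5p and Gm26532, were named after their values or positions were seen.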

Additional observations from a re-analysis of the deposited data

Results flagged for a closer look

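The column TR_2 of the deposited normalized table, which matches none of the 4 count tables, held reads of the members and entered no comparison by the labels of the count tables. Of 1926952 reads recovered from it, 4388 were of miR-27b-3p, 829 of miR-23b-3p, 323 of miR-23a-3p, 198 of miR-27a-3p and 9 of miR-27b-5p, each above the 3 reads taken as the floor. These 5 members made up 2982 RPM (CPM of the unscaled total), and miR-27b-3p alone 2277 RPM, against 4232 to 5564 RPM in the 4 count tables. The sample this column came from is not known from the sources used here, and no difference was tested.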

How the results depend on the processing

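In all 12 alternatives, 0 members passed the cutoffs of 0.6 and 0.1, and the lowest adjusted p of a member in edgeR was 0.378 (without TgAD replicate 1). Over the alternatives the log2 fold change ranged from -0.33 to 0.045 for miR-23a-3p, -0.20 to 0.18 for miR-23b-3p, -0.15 to 0.35 for miR-27a-3p, -0.28 to 0.054 for miR-27b-3p and -0.70 to 1.03 for miR-27b-5p, so their direction was not determined. With total counts as library size, miR-27a-3p, miR-23b-3p and miR-27b-5p turned to -0.15, -0.14 and -0.062. With the columns of the normalized table by name, miR-23b-3p turned to -0.20, miR-27a-5p (main -0.17) to 0.36, the log2 ratio of miR-23b-3p to miR-23a-3p to -0.16 and that of miR-27a-5p to miR-27a-3p to 0.25, and 0 miRNA were called at either cutoff in edgeR, although 54 had an unadjusted p under 0.05. Leaving out 1 library gave miR-27a-5p -0.65 to 0.078. It gave differences in log2 ratio of -0.29 to 0.016 for miR-27b-3p to miR-27a-3p, -0.79 to 0.42 for miR-23b-5p to miR-23b-3p, -0.58 to 0.65 for miR-27b-5p to miR-27b-3p, 0.065 to 0.31 for miR-23b-3p to miR-23a-3p and -0.60 to -0.16 for miR-27a-5p to miR-27a-3p. For the members it gave -0.20 to 0.045 (miR-23a-3p), -0.0070 to 0.18 (miR-23b-3p), -0.068 to 0.35 (miR-27a-3p), -0.079 to 0.054 (miR-27b-3p) and -0.70 to 0.65 (miR-27b-5p). The share of reads taken by the members changed sign after TMM scaling (0.0052 percentage points). miR-27b-5p was not tested with at least 10 reads in every library.

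The count of all miRNA that passed the stringent cutoffs (log2 fold change 1, adjusted p 0.01) was 22 in the edgeR fit described, 0 with RLE normalization (181 with an unadjusted p under 0.05), 86 with total counts, 97 with no filter, 50 with at least 10 reads in every library and 67 with DESeq2, and ranged from 0 (without TgAD replicate 1) to 54 over the fits without 1 library. At the cutoffs of 0.6 and 0.1 it ranged from 118 to 124, 132 and 143 over those fits, against 164, in which the lone library of a genotype is assumed to vary like the others. The replicate numbers are only 2 per genotype and the labels tie them to nothing shared (correlation of the deviations of both first libraries 0.22 over 496 miRNA). With the replicate number as a block, 102 miRNA passed the stringent cutoffs and 188 the others, and 0 members. Beyond these counts, the causes were not tested.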
